A study of Mus musculus with 6 samples.

Results

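MicroRNAs (miRNAs) of the cluster inside Clcn5 on the X chromosome were read in the prefrontal cortex of BTBR and C57BL/6J mice. The assays were chosen by miRNA name alone: every assay on the panel named miR-188, miR-362, miR-500, miR-501, miR-502, miR-532 or miR-660, in any species prefix and either arm. That gave 10 of 750 assays, for 5 of the 7 miRNAs, 8 in assay pool A and 2 in pool B. No assay carried the name miR-502 or miR-660. No measured value enters this rule, but the cluster was proposed with the strain differences of these same samples known. Strain differences of its assays are therefore given as a description, with no p-value for any one assay, and counts of assays past a threshold stand beside the share of the whole panel past the same threshold.

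The study compared 3 male BTBR mice with 3 male C57BL/6J mice, all 5 months old and given no drug, with 1 sample of whole prefrontal cortex per mouse. The BTBR genotype is labelled BTBR T+ Itpr3tf/J, an inbred strain studied for its autism-like behaviour, which carries the tufted allele of Itpr3, and the C57BL/6J mice are labelled wild type. The field for strain background reads C57BL/6J for all 6 samples, the BTBR samples included. The readout was the cycle threshold of a TaqMan OpenArray rodent panel, the PCR cycle at which the signal crosses a set level, with 1 PCR per assay and sample. A later threshold stands for less RNA, and 1 cycle was taken as a 2-fold difference. A value of 40 was read as undetermined. Thresholds of different assays are not compared as amounts, because each assay has its own efficiency. The tissue is a mixture of cells, so fewer cells of a type and less RNA per cell cannot be told apart.

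A miRNA guides its protein complex to messenger RNAs by pairing of its seed, bases 2 to 8 counted from the 5′ end, and lowers their translation or stability. One hairpin can give a miRNA from each of its arms, named 5p and 3p. Clcn5 encodes ClC-5, a chloride and proton exchanger of endosomes best known from the kidney, and the cluster's miRNAs lie within this gene and have been studied in synapses as well as in tumours. Among them, miR-188 and miR-501 are known from work on dendritic spines and glutamate receptors in hippocampal neurons.

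In the RefSeq table of build GRCm38.p6, Clcn5 spans chrX:7153810-7319358 on the minus strand. The 5 hairpins with an assay lie inside that span on the same strand, within 10815 bases. In the direction of transcription, Mir532 comes first at chrX:7248402-7248497, followed 345 bases later by Mir188 at chrX:7247989-7248056. Mir362 at chrX:7241982-7242046 lies 5942 bases further on, Mir501 at chrX:7241243-7241351 another 630 bases on, and Mir500 at chrX:7237683-7237774 a further 3468 bases on. The tables used here hold no exons, so the intron was not looked up.

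The mature sequences below are the RefSeq entries of mouse, printed because they show which members share a seed and so belong to one seed family. Capitals mark the seed. The entry for miR-532-5p is not in the table and is named only. The entry for miR-501-5p is in the table but not printed, and no other mature miRNA there has its seed. The deposited files do not pair assays with sequences, and the names mmu-miR-500, mmu-miR-501 and mmu-miR-501# give no arm.
mmu-miR-500-3p: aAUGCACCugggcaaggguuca
mmu-miR-501-3p: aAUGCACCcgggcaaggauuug
mmu-miR-500-5p: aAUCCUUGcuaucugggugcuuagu
mmu-miR-362-5p: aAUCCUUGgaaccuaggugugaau
mmu-miR-362-3p: aACACACCuguucaaggauuca
mmu-miR-329-3p: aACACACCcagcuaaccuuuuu
mmu-miR-532-3p: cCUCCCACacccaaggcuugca
mmu-miR-188-3p: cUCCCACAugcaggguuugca
mmu-miR-188-5p: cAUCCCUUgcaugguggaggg

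The 3p arms of miR-500 and miR-501 share a seed that no other mature miRNA of the table has. They are identical at 18 of 22 positions and differ by U9C, G18A, C21U and A22G, where positions count from the 5′ end and the base of miR-500-3p comes first. The 5p arms of miR-500 and miR-362 share another seed, again with no other miRNA of the table. The seed of miR-362-3p occurs in 1 miRNA outside the cluster, miR-329-3p of chromosome 12, shown above for that reason. The 3p arms of miR-532 and miR-188 have different seeds but hold the same 8 bases, cucccaca, 1 position apart. The seed of miR-188-5p recurs in miR-7061-3p, for which 0 assays were on the panel.

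Facts of the whole panel that touch the results come first. Between 289 and 305 assays were detected per C57BL/6J sample and between 347 and 404 per BTBR sample, where detected means a raw threshold of at least 10 and under 40. Of the 80 spots of 5 endogenous small RNA controls, 59 to 63 were detected per C57BL/6J sample and 78 to 80 per BTBR sample. The authors' normalized table sets all samples to common quantiles, and on it the median change of the 231 assays tested was -1.13 on the log2 scale, BTBR minus C57BL/6J. On raw thresholds of the same cells that median was -0.01, and it was -0.18 after centring on the global mean, each sample's mean over the 189 assays with 6 values. BTBR replicate 3 correlated more with each C57BL/6J sample (Pearson r = 0.945, 0.966 and 0.951 over these 189 assays) than with BTBR replicates 1 and 2 (0.938 and 0.918). Of 8 assays for neuronal miRNAs, 7 were detected in each C57BL/6J sample and 6 or 7 in each BTBR sample, and on the global mean scale the mean threshold of 5 of them ran from 15.82 to 16.86 cycles over C57BL/6J samples and from 16.33 to 16.71 over BTBR samples. The assay hsa-miR-9 of that list was undetermined in all C57BL/6J samples and in BTBR replicate 3, while hsa-miR-9# was read in all 6 samples. Left out of the mean of 5 assays was mmu-miR-124a, also read in all 6 samples. Its raw thresholds were 31.40, 24.83 and 24.44 cycles in C57BL/6J and 20.78, 19.79 and 23.29 in BTBR, earlier in every BTBR sample. The assay hsa-miR-124# of the same list went the other way, read at 22.74, 21.70 and 13.68 cycles in C57BL/6J and undetermined in all BTBR samples. Of 11 assays for choroid plexus and ependymal miRNAs, 3 or 4 were detected per C57BL/6J sample and 6 or 7 per BTBR sample, with 4 undetermined throughout (mmu-miR-34b, mmu-miR-34b-5p, mmu-miR-211 and mmu-miR-449b). The numbers detected per C57BL/6J and per BTBR sample were 3 and 3 to 4 of 4 assays for oligodendrocyte miRNAs, 5 and 6 to 7 of 11 for astrocyte, 2 to 5 and 5 to 7 of 9 for microglial and blood, 3 to 4 and 4 of 6 for muscle, and 2 to 4 and 4 to 8 of 11 for liver and epithelial miRNAs. Undetermined throughout among these were hsa-miR-199a, hsa-miR-214#, mmu-miR-145#, 1 of the assays named hsa-miR-223, HSA-MIR-144, rno-miR-1#, mmu-miR-133a#, hsa-miR-200c# and mmu-miR-141#, with 1 assay named hsa-miR-200c. The part of these differences in the values below was not tested.

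Readings of cluster assays were more numerous in BTBR. C57BL/6J replicates 1, 2 and 3 gave 6, 7 and 5 detected assays of the 10, and each BTBR sample gave 8. The samples also differed in this way over the panel, as given above. The assays hsa-miR-188-3p and mmu-miR-501 were undetermined in all 6 samples, so 8 assays had at least 1 reading. The authors' normalized table holds 7 of the 10, and 5 had at least 2 normalized values in each strain and entered the strain comparison.

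**Figure D1:**
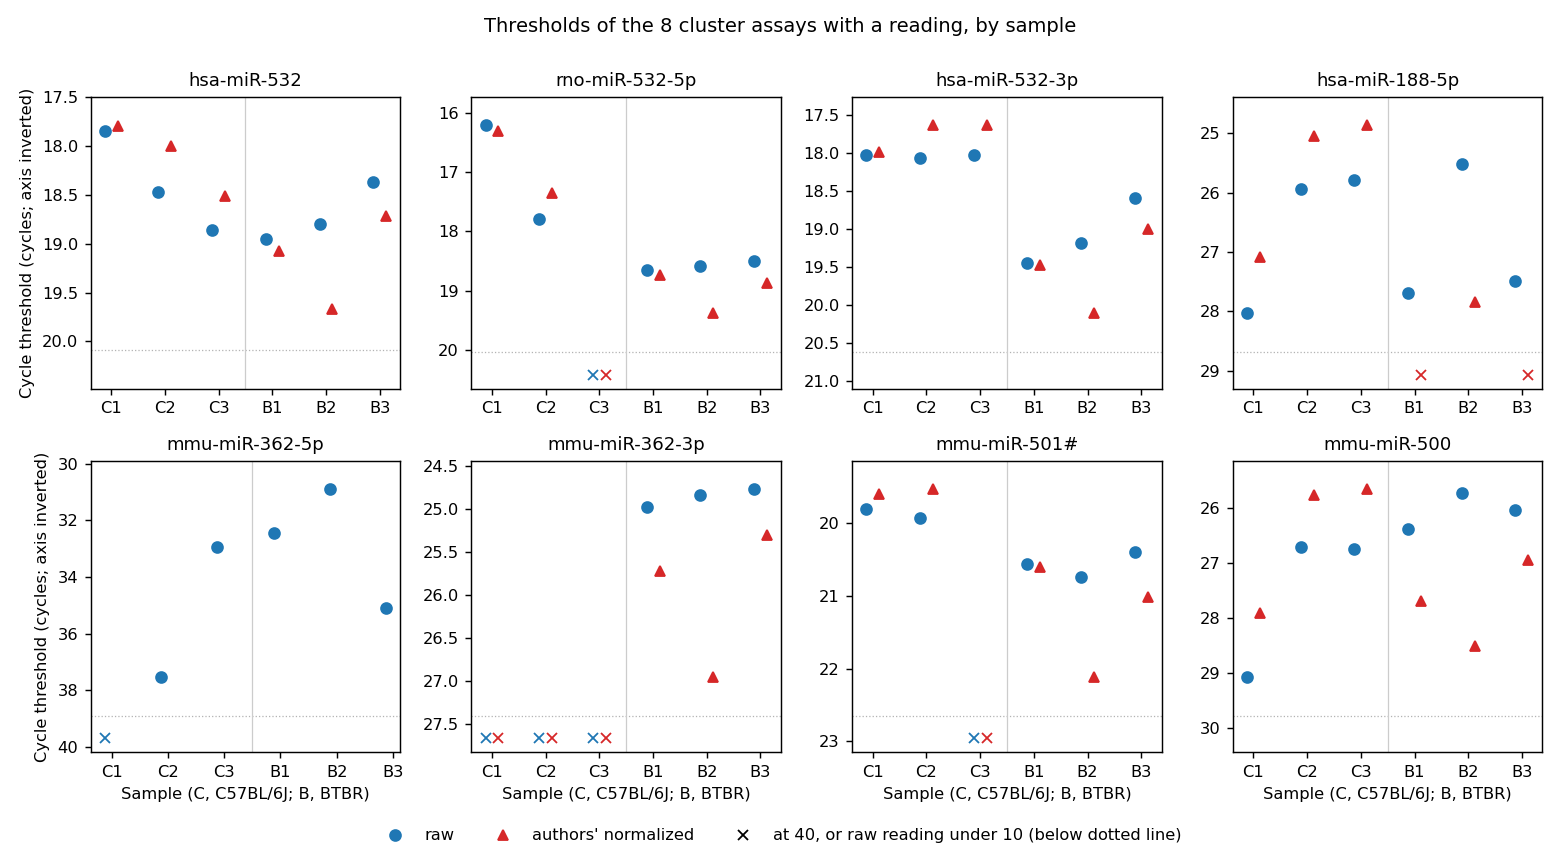
Cycle thresholds (cycles, axis inverted so that more RNA is higher) of the 8 cluster assays with a reading, for C57BL/6J (C1 to C3) and BTBR (B1 to B3) replicates. Circles are raw thresholds, triangles the authors' normalized ones, and crosses below the dotted line mark values at 40 or a raw reading under 10. The assay mmu-miR-362-5p is not in the normalized table and has no triangles. The 3 raw circles of hsa-miR-532-3p in BTBR lie below those of C57BL/6J, those of mmu-miR-500 lie above, and mmu-miR-362-3p has circles in BTBR only.

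The miR-532 hairpin, first in the cluster, gave the earliest thresholds and has 3 assays. For hsa-miR-532-3p (assay 002355), raw thresholds were 18.03, 18.07 and 18.03 cycles in C57BL/6J replicates 1 to 3 and 19.44, 19.18 and 18.59 in BTBR. Every BTBR sample read later than every C57BL/6J sample, and the C57BL/6J readings were close together (SD 0.025), so the spread is that of BTBR. The authors' normalized values were 17.99, 17.64 and 17.64 against 19.48, 20.10 and 19.00 cycles. That is 17.75 ± 0.207 against 19.53 ± 0.548 (SD, n = 3 each), or 3.41-fold less in BTBR, and the log2 change was -1.77 ± 0.37 (standard error). Centred on the global mean, the change was -1.21 ± 0.35 (standard error), 2.31-fold less. The assay thus lay on the same side on both scales, 0.64 below the panel median on the authors' values and 1.02 below it on the global mean scale.

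Both other miR-532 assays concern the opposite arm or name no arm. The assay rno-miR-532-5p (002051) had raw thresholds of 16.20, 17.78 and 9.71 cycles in C57BL/6J and 18.66, 18.59 and 18.50 in BTBR. The reading of C57BL/6J replicate 3 lies just under 10 cycles, stands at 40 in the authors' normalized table, and was left out here. Without it, normalized values averaged 16.82 ± 0.743 for C57BL/6J (SD, n = 2) and 19.00 ± 0.332 for BTBR (SD, n = 3). BTBR thus had 4.51-fold less, the log2 change being -2.17 ± 0.47 (standard error). The strains did not overlap on either table. Centring on the global mean gave -1.91 ± 0.62 (standard error).

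The assay hsa-miR-532 (001518), whose name gives no arm, differed less. Its raw thresholds were 17.84, 18.47 and 18.86 cycles in C57BL/6J and 18.95, 18.80 and 18.37 in BTBR. The strains overlapped there, BTBR replicate 3 reading earlier than C57BL/6J replicates 2 and 3. After the authors' normalization they did not, with 17.80, 17.99 and 18.51 against 19.07, 19.67 and 18.72 cycles, 2.08-fold less in BTBR, and the log2 change was -1.05 ± 0.38 (standard error). This change lay 0.07 above the panel median, within its standard error of it, and centring on the global mean brought it to -0.49 (standard error 0.47).

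The next hairpin, that of miR-188, gave readings for its 5p arm alone. For hsa-miR-188-5p (002320), a miRNA known for its regulation of the semaphorin receptor neuropilin-2 in neurons, raw thresholds were 28.02, 25.94 and 25.79 cycles in C57BL/6J and 27.70, 25.52 and 27.50 in BTBR. The strains overlapped fully, at 26.58 ± 1.25 and 26.90 ± 1.20 cycles (SD, n = 3 each), and the earliest reading of all was that of BTBR replicate 2. In the authors' normalized table the C57BL/6J values were 27.09, 25.05 and 24.86 cycles, BTBR replicate 2 was at 27.84, and BTBR replicates 1 and 3 stood at 40. Rebuilding the normalization gave 31.26 and 30.36 cycles for the latter, past a limit that lies between 29.19, the latest value kept, and 30.03, the earliest one set to 40. The raw readings of these 2 BTBR samples were earlier than that of C57BL/6J replicate 1, which was kept. The authors' deposited table, whose means keep 40 as a value, gives a ratio of 0.000804 of BTBR to C57BL/6J for this assay. With late readings kept the log2 change was -4.15 (standard error 1.10), against -0.50 (standard error 0.71) for all raw readings centred on the global mean.

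Of the miR-362 hairpin, the assay mmu-miR-362-3p (002616) was read in BTBR samples only. Its raw thresholds were 24.97, 24.84 and 24.77 cycles in BTBR, a mean of 24.86 ± 0.105 (SD, n = 3), and all 3 C57BL/6J samples were undetermined. No size follows from an undetermined assay, and the ratio of 16499 in the authors' deposited table sets the BTBR mean against 40. Over the panel, 28 of 750 assays (3.73%) had readings from every BTBR sample but from none of C57BL/6J, 26 of them in pool A, against 3 with the reverse pattern, and 24 of the 28 had an earlier mean BTBR threshold than miR-362-3p. One of the 28 was mmu-miR-329, from the hairpin whose 3p arm has the seed of miR-362-3p printed above. Its raw thresholds in BTBR were 23.32, 24.28 and 22.99 cycles. This assay's name gives no arm, and both miRNAs hold 12 of 22 positions in common.

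The 5p arm of miR-362 lay near the end of the run. The assay mmu-miR-362-5p (002614, pool B) was undetermined in C57BL/6J replicate 1 and read at 37.52 and 32.93 cycles in replicates 2 and 3, against 32.44, 30.89 and 35.10 in BTBR. BTBR replicates 1 and 2 read earlier than both C57BL/6J samples, while BTBR replicate 3 lay between them. The assay is not in the authors' normalized table. Their quantile step, rebuilt without the limit on late values, gave 32.64 and 28.79 cycles in C57BL/6J and 35.19, 38.48 and 37.40 in BTBR, so that the order of the strains turned round. The log2 change was -6.31 (standard error 1.60) with that step and 2.37 (standard error 1.78) after centring on the global mean.

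Further along, miR-501 was read through mmu-miR-501# (001651), where # is a naming mark for the strand taken as the less abundant. The assay without the mark, mmu-miR-501, was undetermined in all samples, so these readings do not show which strand is the less abundant here. Raw thresholds were 19.80 and 19.93 cycles in C57BL/6J replicates 1 and 2 and 20.56, 20.73 and 20.40 in BTBR. C57BL/6J replicate 3 was undetermined. Every BTBR sample read later than both C57BL/6J samples. Normalized values were 19.56 ± 0.0520 (SD, n = 2) and 21.24 ± 0.777 (SD, n = 3), 3.20-fold less in BTBR, and the log2 change was -1.68 ± 0.55 (standard error). Centred on the global mean, the change was -1.02 ± 0.37 (standard error). The authors' deposited table gives a ratio of 35.1 for this assay and 46.9 for rno-miR-532-5p, more in BTBR, since its C57BL/6J means include the 40 of replicate 3.

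The last hairpin also gave an assay whose direction depends on the table. For mmu-miR-500 (002606), raw thresholds were 29.06, 26.71 and 26.75 cycles in C57BL/6J and 26.38, 25.72 and 26.04 in BTBR. All BTBR samples read earlier, by the least margin against C57BL/6J replicate 2 and the most against replicate 1. The authors' normalized values were 27.91, 25.77 and 25.65 against 27.69, 28.50 and 26.95 cycles, where the strains overlapped and the BTBR mean was the later. The log2 change was -1.27 ± 0.75 for the authors' values, 1.28 ± 0.58 after centring on the global mean and 1.46 ± 0.70 for raw thresholds (± standard error). Without C57BL/6J replicate 1, the change on the authors' values was -2.0 and the assay passed the threshold of the comparison.

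**Figure D2:**
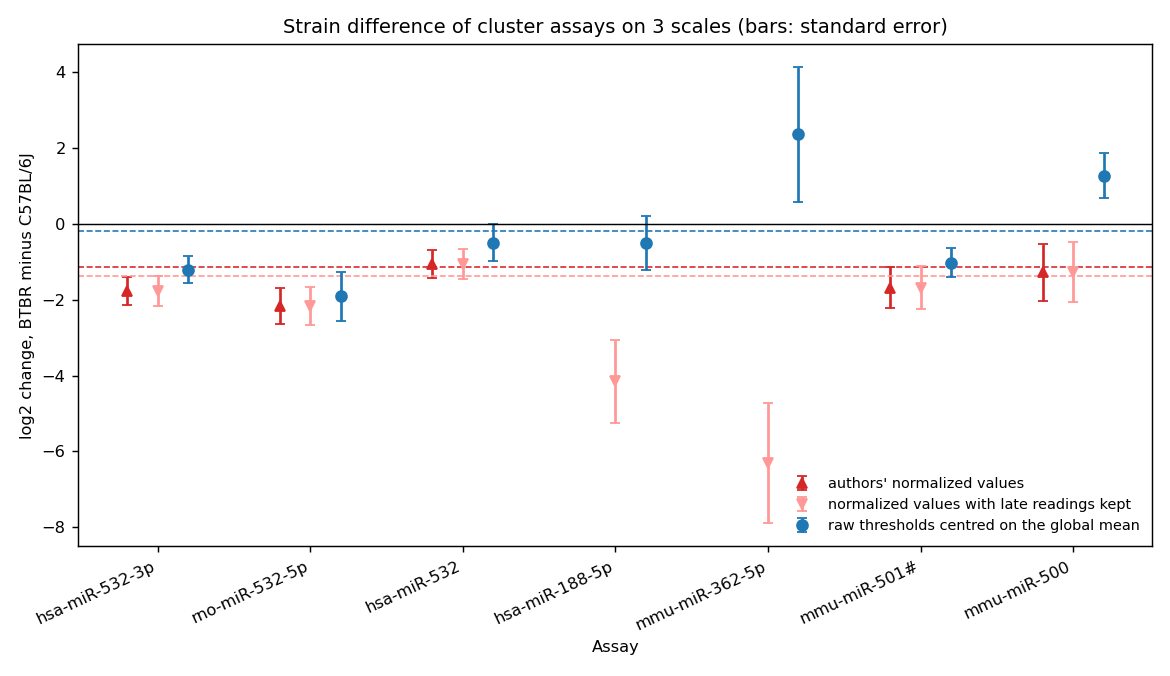
log2 change, BTBR minus C57BL/6J, of the 7 cluster assays that could be fitted on at least 1 scale (y axis), with standard error bars from limma. Triangles are the authors' normalized values, inverted triangles the same with late readings kept, circles raw thresholds centred on the global mean with all readings, and dashed lines the medians over all assays of each fit (-1.13, -1.37 and -0.19). The 3 miR-532 assays, hsa-miR-188-5p and mmu-miR-501# lie below 0 on each scale that has them, while mmu-miR-362-5p and mmu-miR-500 lie below 0 on normalized values and above 0 on the global mean scale.

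Counted together on the authors' normalized values, 2 of the 5 tested assays had less RNA in BTBR at a limma adjusted p under 0.05, rno-miR-532-5p and hsa-miR-532-3p. None passed with more. Over all 231 assays 35.5% passed in the first direction and 1.30% in the second. The median of the 5 changes was -1.68 against -1.13 for the panel, and all 5 were negative, as were 190 of the 231. Leaving out a C57BL/6J sample gave 2 of 3 tested cluster assays without replicate 1 (29.1% of the panel in that fit), 0 of 3 without replicate 2 (0.943%) and 0 of 5 without replicate 3 (0.00%). Leaving out a BTBR sample gave 0 of 5 without replicate 1 (0.00%), 0 of 5 without replicate 2 (3.76%) and 3 of 5 without replicate 3 (41.5%). At an unadjusted p under 0.05, in either direction, limma had 2, 1 and 4 cluster assays in the C57BL/6J fits, where 50.5%, 42.0% and 44.8% of the panel had one. It had 3, 3 and 4 in the BTBR fits, against 42.0%, 39.9% and 57.5% of the panel. With late readings kept, 4 of 7 cluster assays passed with less RNA in BTBR, hsa-miR-188-5p and mmu-miR-362-5p being added, against 31.1% of 270 assays. Raw thresholds of these added assays did not show this: hsa-miR-188-5p overlapped between strains, and mmu-miR-362-5p had the earlier mean in BTBR. With all raw readings centred on the global mean their changes were -0.50 and 2.37, and neither passed. With thresholds centred on the global mean, limma passed 0 of the 5 and 0.433% of the panel at an adjusted p under 0.05. At an unadjusted p under 0.05 it had 3 of the 5 and 29.9% of the panel. These counts describe the comparison on which the cluster was proposed.

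The strains did not overlap for 4 of the 5 tested assays on normalized values, all with less RNA in BTBR, where 54.5% of the panel did so in that direction and 3.90% in the other. On raw thresholds of the same cells the count was 3 lower, rno-miR-532-5p, hsa-miR-532-3p and mmu-miR-501#, and 1 higher, mmu-miR-500. The shares of the panel there were 19.9% and 16.9%. On the global mean scale the same 3 and 1 did not overlap, with 22.9% and 16.0% of the panel.

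Differences between assays within a sample do not change when 1 value is subtracted from all thresholds of that sample, as centring does, and they were taken on raw thresholds against hsa-miR-532-3p. This reference itself read later in BTBR (log2 change -1.03 on raw thresholds), and that shift enters every gap to it. How many assay pairs of the panel have gaps without overlap was not counted. The threshold of mmu-miR-501# lay 1.77 and 1.85 cycles after that of hsa-miR-532-3p in C57BL/6J and 1.12, 1.55 and 1.80 after it in BTBR. The strains overlapped in this gap. The threshold of mmu-miR-500 lay 11.03, 8.64 and 8.72 cycles later than hsa-miR-532-3p in C57BL/6J and 6.94, 6.54 and 7.45 later in BTBR. All BTBR samples had the smaller gap, at 9.46 ± 1.36 against 6.98 ± 0.458 cycles (SD, n = 3 each), a difference of 2.49 cycles. The authors' quantile step is no such subtraction, and on their normalized values the gaps were 9.92, 8.13 and 8.02 cycles in C57BL/6J and 8.21, 8.40 and 7.94 in BTBR, with overlap.

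Within the miR-532 hairpin, hsa-miR-532 minus hsa-miR-532-3p was -0.18, 0.40 and 0.83 cycles in C57BL/6J and -0.49, -0.39 and -0.23 in BTBR. The strains did not overlap in this quantity, and the difference of their means was 0.717 cycles. On raw thresholds hsa-miR-532 alone overlapped between strains (log2 change -0.31), and the larger shift of hsa-miR-532-3p (-1.03) enters this difference. The gap of hsa-miR-188-5p to hsa-miR-532-3p averaged 8.54 ± 1.26 cycles for C57BL/6J and 7.83 ± 1.33 for BTBR, with overlap (SD, n = 3 each). The assays rno-miR-532-5p and hsa-miR-532 differed by -0.29, -0.20 and 0.14 cycles in BTBR but by -1.64 and -0.69 in C57BL/6J. The strains did not overlap in this gap, whose mean differed by 1.05 cycles, and the comparison rests on 2 C57BL/6J samples. Against hsa-miR-532-3p, rno-miR-532-5p lay at -1.83 and -0.29 cycles in C57BL/6J and at -0.78, -0.59 and -0.09 in BTBR, with overlap.

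**Figure D3:**
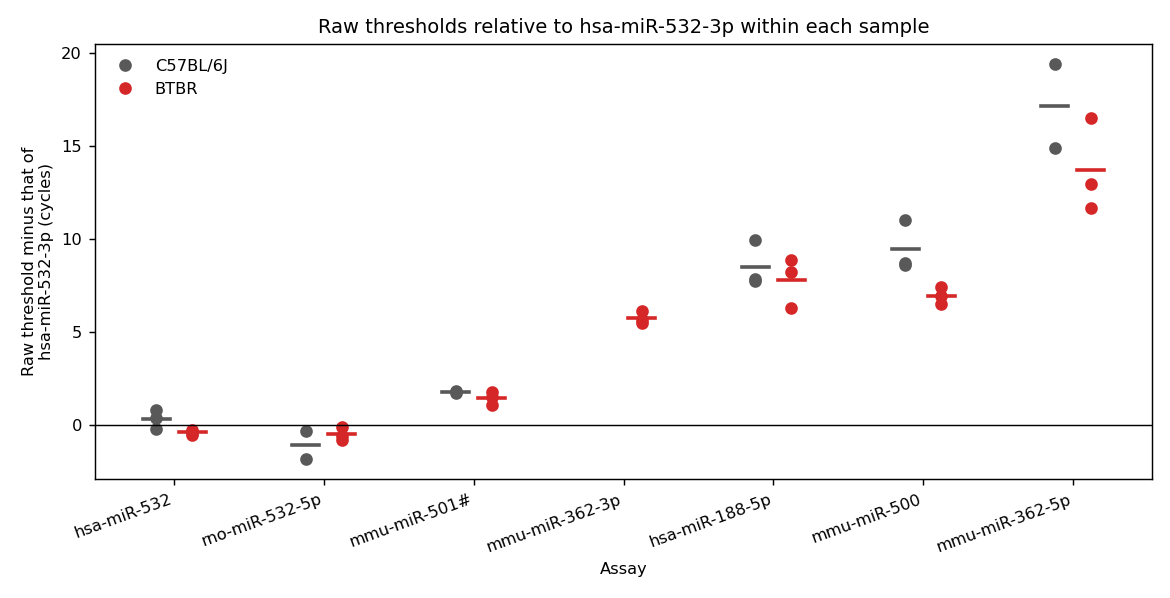
Raw threshold of each cluster assay minus that of hsa-miR-532-3p in the same sample (cycles, y axis), with 1 point per sample and a bar at the mean, for C57BL/6J in grey and BTBR in red. The points of mmu-miR-500 lie between 8.64 and 11.03 cycles in C57BL/6J and between 6.54 and 7.45 in BTBR, while those of hsa-miR-188-5p overlap.

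Other assays lay nearer to the profile of hsa-miR-532 over the samples than the other cluster assays did. This assay was taken as the earliest by its mean of the 3 cluster assays with 6 normalized values, and no other cluster assay was used as the reference. The assays nearest to it by root mean square difference of mean-centred profiles over the 6 samples were mmu-miR-491 (0.225 cycles), hsa-let-7i of the let-7 family (0.238) and mmu-miR-134, known from neuronal dendrites (0.239). The assay hsa-miR-532-3p ranked 38 among the other assays with 6 values, at 0.476 cycles, and mmu-miR-500 ranked 138 at 0.927, beyond the median of 0.677. These profiles share the quantile step of the authors' table.

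Other X-linked miRNAs outside Clcn5 numbered 89 assays on the panel, of which 15 could be tested. On the authors' values 5 of these passed with less RNA in BTBR (33.3%) and 1 with more, with a median change of -1.60. The 5 were hsa-miR-20b (log2 change -1.70), mmu-miR-322 (-2.25), mmu-miR-676 (-1.62), mmu-miR-503# (-1.73) and mmu-miR-547 (-1.67), and the 1 was HSA-MIR-421 (1.61). On the global mean scale their median was 0.04, with 7 of the 15 negative, 0 lower calls and 1 higher call, HSA-MIR-421 at 3.68, while that of the 5 cluster assays was -1.02. With late readings kept in the authors' normalization, 16 X-linked assays could be tested. Of these, 3 passed with less RNA in BTBR (18.8%) and 0 with more. The highest change among them was 0.677, so HSA-MIR-421 no longer passed as higher. Of the 5 cluster assays, 3 belong to the miR-532 hairpin.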

How the data were processed

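Small RNA levels were measured once per assay in 6 samples, from 100 ng of total RNA with an RNA integrity number of 9, by reverse transcription with pre-amplification, as the labels' protocols state. Neither the instrument's software nor its threshold setting is given in the sources used here. The authors deposited raw cycle thresholds and, per the file headers, quantile-normalized ones, both on a log2 scale. Their comparison table holds, per the file headers, a ratio, the difference between mean thresholds (log2), the value of a test (a score) and p-values, and only its ratios are printed here. The authors' other steps were rebuilt from both tables: raw values under 10 set to 40, assays with at least 3 readings kept (340), common quantiles, a limit on late values and the filter again (306 assays). The largest difference from the deposited values was 3.33e-09 cycles.

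Normalized thresholds were multiplied by -1, with 40 as missing. Assays with at least 2 values per strain (231) were fitted with limma 3.58.1 in R 4.3.3 (lmFit, eBayes, strain as the single term), with Benjamini-Hochberg adjustment over all of them. The fit was checked on simulated data. A threshold has no counting depth, and 3 mice per strain limit the precision. The sources used here do not tell which samples were run on one array. Members and lists were chosen with earlier results of these data known. Every member is named. The rule also names the 3 assays nearest in profile to the earliest member with 6 values, seed mates, and members of the marker and X-linked lists. Alternatives were other scalings, 40 as a value, late readings, detection filters, each replicate left out and a replicate block. Mature sequences and positions come from RefSeq (GRCm38.p6): 9 mature entries matched the 5 hairpins.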

Additional observations from a re-analysis of the deposited data

How the results depend on the processing

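Of 74 alternative values for single cluster assays, 48 kept their direction and side of the threshold, 17 kept the direction but no longer passed, 2 passed only under the alternative (hsa-miR-532 at -1.27 without BTBR replicate 3, and mmu-miR-500 without C57BL/6J replicate 1) and 7 changed sign. An assay that had not passed kept its side by again not passing, and such values are most of the 48. All 17 belong to rno-miR-532-5p and hsa-miR-532-3p, the 2 assays that had passed, and for these most alternatives no longer passed. The changes of sign were those of mmu-miR-500 with the global mean (1.28, also with all raw readings), the global mean within each pool (1.27), raw thresholds (1.46) and the median of control spots (0.006), and, with 40 kept as a value, those of mmu-miR-501# (5.13) and rno-miR-532-5p (5.55), where the 40 of C57BL/6J replicate 3 enters the mean. The number of cluster assays that passed with less RNA in BTBR, 2 of 5, was 0 with the global mean, the global mean within pools, raw thresholds or all raw readings on the global mean scale (this setting was chosen after seeing the data), 1 of 7 with 40 kept as a value (22.9% of the panel, with mmu-miR-362-3p passing as higher, as 8.50% did), 1 of 3 with values required in all 6 samples (42.9%) and 4 of 7 with late readings kept (31.1%). In the 4 fits with 0 cluster assays, 0.00% of the panel passed as lower. It was 2 of 5 with the median of control spots (25.5% of the panel) and 2 of 6 with at least 1 value in each strain (27.0%), and 0 to 3 with single samples left out. The replicate numbers are not stated to pair mice, and deviations of same-numbered samples correlated at 0.083, 0.421 and -0.001, with C57BL/6J replicate 1 nearest to BTBR replicate 3 (0.256). With the replicate block, 0 of the 5 passed. Of the 231 assays of the panel, 31 (13.4%) then passed as lower, against 82 (35.5%) without the block. The median change of the tested cluster assays was -1.68, against -1.13 for the panel. It was -1.02 with the global mean (panel -0.185), -1.03 within pools (-0.190), -0.70 on raw thresholds (-0.015) and -0.50 with all raw readings (-0.190). The median of control spots gave -2.08 (-1.40), late readings kept -1.77 (-1.37) and the replicate block -1.77 (-1.11). With 40 kept as a value it was -1.05 (-1.07), and with values in all 6 samples -1.27 (-1.11). At least 1 value in each strain gave -1.73 (-1.11), and single samples left out -1.89 to -1.0. The mean number of detected cluster assays was 6 in C57BL/6J and 8 in BTBR. It was 5.33 and 7 when readings above 30 cycles were left out, and 6.33 and 8 with raw values under 10 counted as detected.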
